A study of Mus musculus with 18 samples.

Results

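The question addressed here was how far the response of mouse embryonic fibroblasts to 90 min of tumour necrosis factor (TNF) differed between a line labelled as an IKK2 knock-out and a wild-type line. It was read as a difference of responses: the log2 change from untreated to TNF in the IKK2 knock-out line, minus the same change in the wild-type line. A negative value means a smaller rise or a larger fall in the knock-out line. The measurement rests on 8 of the 18 RNA sequencing libraries of the study, 2 in each of 4 groups. These were immortalised wild-type cells (WT) untreated, WT cells with TNF alpha for 90 min at 10 ng/ml, immortalised IKK2 knock-out cells (IKK2 KO) untreated, and IKK2 KO cells with the same TNF treatment. The other 10 libraries, from both lines at 45 min and from a p65 knock-out line at all 3 times, entered the fit and helped to set the spread between replicates.

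Every library came from an immortalised line, so immortalisation is shared by all groups. The labels name 1 line for each genotype and do not say whether a line is a clone, which exons were deleted or whether the 2 libraries of a group came from separate cultures. The p-values therefore measure only the spread between these libraries, which may be technical, and a difference due to the genotype cannot be told apart from any other difference between the 2 lines. In the text, the libraries of a group are called a and b, and values for a group are given in that order.

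TNF binds its receptors at the cell surface, and adaptors and ubiquitin ligases recruited there activate the kinase TAK1 and the IκB kinase complex. In that complex IKK2, encoded by Ikbkb and also called IKK beta, phosphorylates the IκB proteins that hold NF-κB dimers in the cytoplasm. The IκB proteins are then degraded, and NF-κB enters the nucleus and activates genes for its own inhibitors, for chemokines, cytokines, adhesion molecules and survival factors. TNF also activates the MAP kinases JNK, p38 and ERK, which act on immediate-early genes.

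The 8 libraries held 17.7 to 23.5 M counts each. Summed fibroblast markers stood near the same level in all 8 libraries, between 11840 and 12860 CPM (counts scaled to library size after TMM adjustment). Single markers differed, with untreated means of 5082 CPM in WT and 2768 CPM in IKK2 KO for Fn1, and 2930 and 4346 CPM for Vim. Epithelial markers summed to at most 0.495 CPM in WT and to between 8.4 and 9.35 CPM in IKK2 KO. Muscle markers summed to between 14.8 and 18.7 CPM in WT and between 77.9 and 86.4 CPM in IKK2 KO. Neural markers were lower in IKK2 KO, at 348.3 to 370 CPM against 545.1 to 573.8 CPM in WT. So were adipocyte markers, at 0.399 to 1.36 against 5.95 to 6.7 CPM, and myeloid markers, at 5.87 to 7.35 against 8.76 to 10.9 CPM. The muscle sums were nearly all Tnnt2, at means of 18.4 CPM in untreated WT and 83.2 CPM in untreated IKK2 KO. The adipocyte sums of WT were nearly all Cebpa, at a mean of 6.26 CPM untreated. These sums therefore describe single genes more than cell types. The part of these cell types in the results was not tested. Untreated, the 2 lines differed in 12122 of the 16322 genes tested (74.3%) at an adjusted p under 0.05 by the quasi-likelihood test of edgeR with Benjamini-Hochberg adjustment, which is the test used throughout. Ikbkb itself stood at 59.3 and 60.4 CPM in untreated WT, 64.1 and 63.8 CPM in WT after TNF, 43.7 and 43.1 CPM in untreated IKK2 KO and 44.7 and 43.5 CPM in IKK2 KO after TNF. The gene was thus still transcribed in the line labelled IKK2 KO, and a count over the whole gene cannot check a deletion of some of its exons. Its difference of responses was -0.07 ± 0.07 (log2 ± SE, adjusted p = 0.774).

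The TNF response differed between the lines in 384 genes (2.35% of those tested). It was lower in IKK2 KO for 248 genes (1.52%) and higher for 136 genes (0.833%). TNF changed 1521 genes in WT (9.32%), of which 948 rose (5.81%) and 573 fell (3.51%), and 732 genes in IKK2 KO (4.48%), of which 549 rose (3.36%) and 183 fell (1.12%). Most differences were small: the median size among the 384 genes was 0.38 on the log2 scale, and 52 of them (0.319%) differed at least 2-fold, 44 lower (0.27%) and 8 higher (0.049%). Over all genes tested the median difference was 0.0019, with quartiles of -0.12 and 0.13. In these bulk samples, fewer responding cells and less RNA per cell cannot be told apart.

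Of the 248 lower genes, 153 had point estimates above 0 in both lines, less so in IKK2 KO, and 95 had an estimate above 0 in WT and below 0 in IKK2 KO. Of the 136 higher genes, 89 were below 0 in WT and above 0 in IKK2 KO, 20 were below 0 in both and less so in IKK2 KO, and 27 were above 0 in both and more so in IKK2 KO. Each line gives 4 possible TNF minus untreated differences between its libraries, and these did not overlap between the lines for all 384 genes and for 4292 genes (26.3%) of those tested. The number of higher genes ran from 83, without library a of TNF-treated IKK2 KO, to 133 when each of the 8 libraries was left out in turn. DESeq2 called 208 genes, 142 lower and 66 higher, of which 207 were among the 384.

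**Figure D1:**
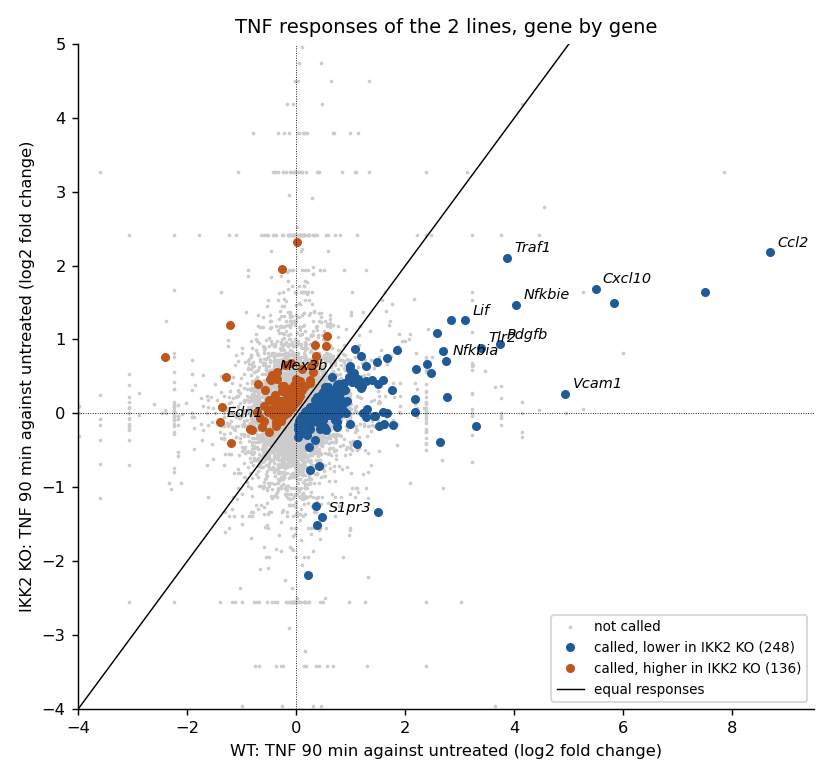
Log2 change after 90 min of TNF in WT (x axis) against the same change in IKK2 KO (y axis), 1 point for each gene tested, with the line of equal responses. The 248 genes called lower in IKK2 KO (blue) lie below that line, many of them far to the right at strong WT responses, and the 136 called higher (orange) lie above it, most of them with small changes in both lines and some, such as Xist and Edn1, farther out; 8 genes that were not called lie outside the axes.

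The inhibitors of NF-κB that the pathway induces as its own brake responded less in IKK2 KO. Nfkbia encodes IκBα, the inhibitor whose loss releases NF-κB (chr12:55489410-55492647, GRCm38, minus strand). It stood at 15.6 and 15.1 CPM in untreated WT and 105 and 100.1 CPM in WT after TNF, against 42 and 40.8 CPM in untreated IKK2 KO and 66.3 and 69.6 CPM in IKK2 KO after TNF. The 4 groups did not overlap, IKK2 KO began above WT and ended below it. The log2 change was 2.74 ± 0.05 in WT and 0.71 ± 0.05 in IKK2 KO, a difference of -2.03 ± 0.07 (adjusted p = 5.6e-24). Nfkbie, which encodes IκBε (chr17:45555703-45563169, plus strand), stood at 1.52 and 1.44 CPM in untreated WT, 25.8 and 22.8 CPM in WT after TNF, 1.08 and 1.55 CPM in untreated IKK2 KO and 3.73 and 3.54 CPM in IKK2 KO after TNF. The untreated libraries of the 2 lines overlapped here and the treated ones lay far apart, and the difference of responses was -2.57 ± 0.35 (adjusted p = 1.1e-06).

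Of the 6 IκB family genes tested, 4 were lower and 0 higher, with a median difference of -1.44, or -2.03 without Nfkbid, which had 0 counts in IKK2 KO in both states. Nfkbib, encoding IκBβ, had a difference of -0.85 ± 0.14, and Bcl3, an atypical member that acts in the nucleus, one of -3.45 ± 0.94 (adjusted p = 0.0378). Bcl3 went from 0.71 and 0.451 CPM to 5.74 and 5.44 CPM in WT and from 0.114 and 0.186 CPM to 0.105 and 0.158 CPM in IKK2 KO. Its IKK2 KO libraries rest on few counts, and its call was lost in 6 of the 8 fits that each left out 1 library, with an adjusted p of up to 0.449 without library b of untreated IKK2 KO.

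Among 13 genes for ubiquitin and RNA-decay brakes, 3 were lower and 0 higher, with a median of -0.06. Tnfaip3 encodes A20, an enzyme that edits ubiquitin chains on signalling proteins (chr10:19000910-19015657, minus strand). It rose from 8.98 and 8.54 CPM to 50.2 and 46.8 CPM in WT and from 36.5 and 32.9 CPM to 50.7 and 51 CPM in IKK2 KO. After TNF the lines were within a few CPM of each other, and the difference of responses, -1.92 ± 0.09 (adjusted p = 2.4e-20), came with an untreated level that was 1.99 ± 0.08 higher in IKK2 KO on the log2 scale. Tnip1, which encodes a partner of A20, had a difference of -1.10 ± 0.10, and Traf3, which encodes a ligase component of receptor complexes, one of -0.39 ± 0.06.

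**Figure D2:**
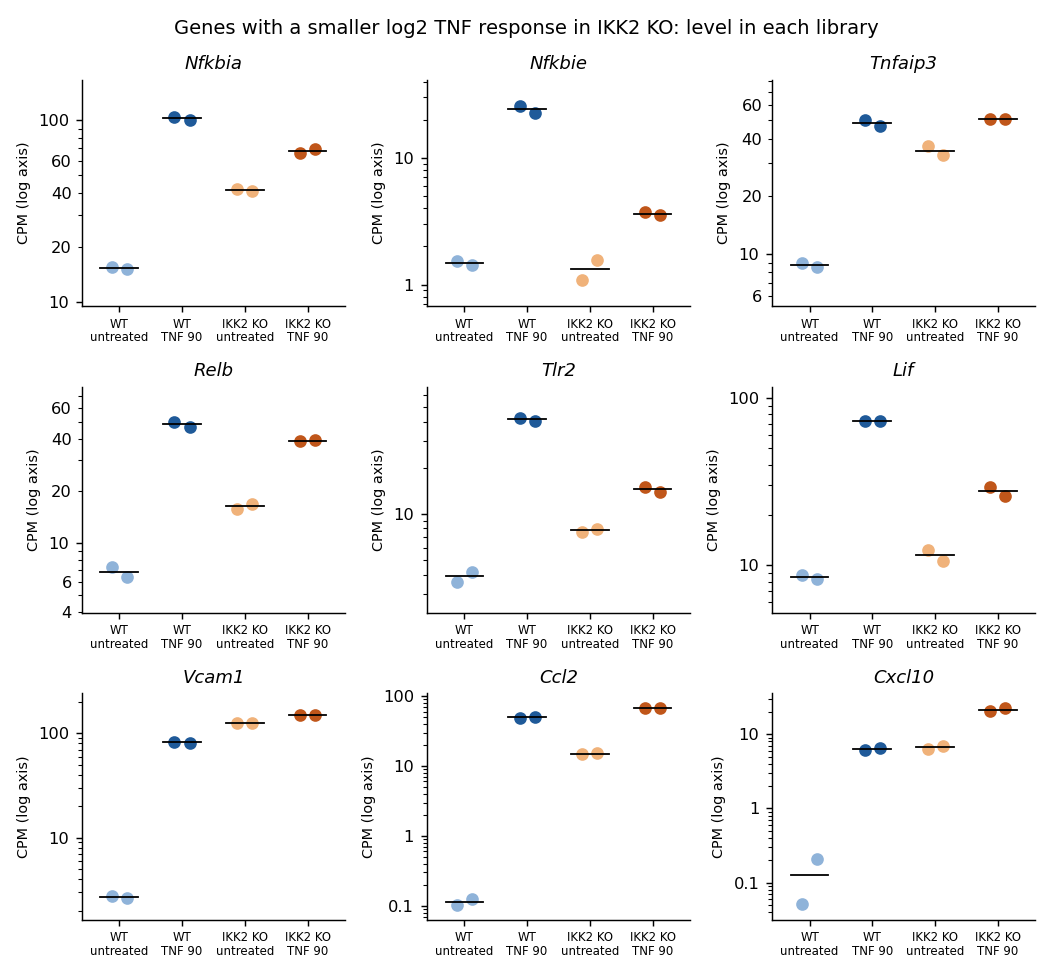
Level in each library (CPM, log axis) for 9 genes with a smaller log2 response in IKK2 KO; points are libraries and bars are the means of 2. Nfkbie starts at overlapping levels in both lines and lies apart after TNF, whereas Vcam1, Ccl2 and Cxcl10 start far higher in IKK2 KO than in WT; in CPM the gains of Ccl2 and Cxcl10 were larger in IKK2 KO.

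Promoter sequence was read because several of the genes described so far are known NF-κB targets. A κB consensus match, the binding motif of NF-κB, on either strand within 250 bases upstream of a start site was present in 3.9% of 32851 RefSeq promoters and in 544 (5.35%) of the 10159 tested genes with a promoter entry. Among the lower genes, 37 of 201 with an entry (18.4%) had a match, and 12 of 35 (34.3%) of those lower by at least 2-fold. Among the higher genes 3 of 99 (3.03%) had one. The AP-1 motif TGANTCA was also more frequent among lower genes: it was present in 5.56% of tested genes, 10.9% of lower genes and 5.05% of higher genes. Of the 35 lower by at least 2-fold, 7 (20%) had an AP-1 match. The CArG box was present in 1.57%, 1.49% and 3.03%, and in 0 of those 35. A match describes the letters of the window and does not show binding.

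The 200 bases before the first listed start site are shown for 6 lower genes with matches (RefSeq, GRCm38.p6, read 5′ to 3′ along the gene), with the κB matches in capitals. In Tlr2, and at the first of its sites in Nfkb2, overlapping matches merge into 1 longer run of capitals.
Nfkbia (chr12:55492648-55492847, minus strand): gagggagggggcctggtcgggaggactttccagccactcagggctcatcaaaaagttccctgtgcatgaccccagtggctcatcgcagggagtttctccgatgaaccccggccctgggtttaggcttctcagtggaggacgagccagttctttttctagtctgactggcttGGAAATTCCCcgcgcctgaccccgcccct
Nfkbie (chr17:45555500-45555699, plus strand): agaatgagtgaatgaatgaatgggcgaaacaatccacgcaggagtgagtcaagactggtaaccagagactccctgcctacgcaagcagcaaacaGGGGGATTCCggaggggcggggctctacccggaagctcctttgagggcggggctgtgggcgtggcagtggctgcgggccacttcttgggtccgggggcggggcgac
Tnfaip3 (chr10:19015411-19015610, minus strand): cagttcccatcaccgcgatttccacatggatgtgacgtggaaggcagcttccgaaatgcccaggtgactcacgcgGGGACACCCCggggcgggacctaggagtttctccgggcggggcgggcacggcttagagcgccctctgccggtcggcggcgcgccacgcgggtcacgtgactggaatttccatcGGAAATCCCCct
Tlr2 (chr3:83841609-83841808, minus strand): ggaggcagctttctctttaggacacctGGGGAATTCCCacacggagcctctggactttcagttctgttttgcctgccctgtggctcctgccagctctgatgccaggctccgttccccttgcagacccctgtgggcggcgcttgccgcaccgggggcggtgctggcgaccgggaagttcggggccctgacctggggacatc
Nfkb2 (chr19:46304537-46304736, plus strand): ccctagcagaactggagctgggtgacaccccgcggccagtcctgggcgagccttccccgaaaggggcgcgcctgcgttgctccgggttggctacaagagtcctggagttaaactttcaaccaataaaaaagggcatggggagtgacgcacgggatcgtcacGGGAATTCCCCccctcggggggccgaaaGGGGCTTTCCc
Cxcl10 (chr5:92348890-92349089, minus strand): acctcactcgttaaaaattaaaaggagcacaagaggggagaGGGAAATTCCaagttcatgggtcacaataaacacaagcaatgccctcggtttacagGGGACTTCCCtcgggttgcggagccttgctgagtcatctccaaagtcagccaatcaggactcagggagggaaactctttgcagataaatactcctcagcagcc

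The match begins 29 bases before the start site in Nfkbia and 106 bases before it in Nfkbie. Tnfaip3 and Cxcl10 each hold 2 separate κB matches. The windows of Nfkbie, Tnfaip3 and Cxcl10 also hold 1 AP-1 match each, which is not marked.

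The genes of the NF-κB subunits themselves responded less in IKK2 KO, with 4 of 5 lower, 0 higher and a median of -0.51. In each of the 5, TNF still raised the level in both lines. Relb, a subunit of the non-canonical branch (chr7:19606217-19629438, minus strand), stood at 7.25 and 6.36 CPM in untreated WT, 49.8 and 46.8 CPM in WT after TNF, 15.7 and 16.8 CPM in untreated IKK2 KO and 38.8 and 39.1 CPM in IKK2 KO after TNF. IKK2 KO began higher and ended lower, and the difference was -1.58 ± 0.11 (adjusted p = 1.9e-14). Among the others Nfkb2, the gene of p100 and p52, differed by -0.92 ± 0.05, Nfkb1, the gene of p105 and p50, by -0.51 ± 0.05, and Rel by -0.42 ± 0.07. Mean untreated levels in WT and IKK2 KO were 53.6 and 88.8 CPM for Nfkb2, 134 and 115 CPM for Nfkb1, and 25.7 and 42.6 CPM for Rel. After TNF these were 170 and 149 CPM, 280 and 168 CPM, and 58.7 and 72.7 CPM. Rel thus began and ended higher in IKK2 KO, and its gains in CPM were close, at 33 in WT and 30.2 in IKK2 KO. Rela, the gene of p65, rose by 0.77 ± 0.04 in WT and 0.59 ± 0.04 in IKK2 KO, and its difference of -0.18 ± 0.06 did not pass the test (adjusted p = 0.106). That value was -0.23 (adjusted p = 0.0493) without library b and -0.12 (adjusted p = 0.557) without library a of untreated IKK2 KO.

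The genes upstream of NF-κB were read as the next group. Of 14 genes for TNF receptors and adaptors 1 was lower, and of 12 genes for IKK, TAK1 and upstream kinases 1 was lower and 1 higher, with medians of -0.04 and -0.10. Over all genes tested 2.35% were called. The lower ones were Birc2, which encodes the ubiquitin ligase cIAP1, with a difference of -0.74 ± 0.13, and Tank, a TRAF-binding adaptor of the non-canonical IKK kinases, with -0.58 ± 0.08. The higher one was Map3k14, the gene of the kinase NIK, with 0.36 ± 0.10 (adjusted p = 0.0277). The call of Map3k14 was lost with DESeq2 and in 5 of the 8 fits that each left out 1 library, with an adjusted p of up to 0.197 without library a of untreated WT.

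Chemokines were among the largest differences on the log2 scale, and for these the untreated level has to be read beside the response. Ccl2, the main attractant of monocytes (chr11:82035571-82037453, plus strand), stood at 0.101 and 0.123 CPM in untreated WT and 48.4 and 50.9 CPM in WT after TNF. In IKK2 KO it stood at 14.9 and 15.2 CPM untreated and 68 and 68.4 CPM after TNF. The WT libraries went from close to 0 to a moderate level, whereas IKK2 KO began well above untreated WT and ended above treated WT. The log2 change was 8.70 ± 0.15 in WT and 2.18 ± 0.06 in IKK2 KO, so that the difference was -6.52 ± 0.25 (adjusted p = 1.4e-23). Untreated WT rests on 5 summed counts here, so the SE of the WT change and of the difference may be too small. In CPM, however, the mean gain was 49.6 in WT and 53.1 in IKK2 KO, so the direction of the difference turns with the scale.

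Cxcl10, an attractant of T cells (chr5:92346638-92348889, minus strand), had the same form. It went from 0.0507 and 0.205 CPM to 6.19 and 6.59 CPM in WT and from 6.33 and 6.93 CPM to 20.4 and 22.2 CPM in IKK2 KO. Untreated IKK2 KO overlapped TNF-treated WT. The log2 difference was -3.80 ± 0.40 (adjusted p = 2.9e-09), while the gain in CPM was larger in IKK2 KO, at 14.7 against 6.26. It rests on 6 summed counts in untreated WT, and was -3.23 without library a and -5.12 without library b of that group. Ccl7, another monocyte attractant, had summed counts of 0 in untreated WT, 43 in WT after TNF, 104 in untreated IKK2 KO and 366 in IKK2 KO after TNF, and no fold is given for it. Cx3cl1, a membrane-bound chemokine, differed by -0.53 ± 0.06 from a higher untreated level in WT, at 75.6 and 78.4 CPM against 40.4 and 42.4 CPM.

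Of the 11 chemokine genes tested 4 were lower and 0 higher, with a median of -1.27, and for Ccl2, Cxcl10 and Ccl7 among the 4 the direction turns in CPM. In the other direction by counts stood Cxcl1, a neutrophil attractant picked out after its values were seen. Its counts summed to 1 in untreated WT and 0 in WT after TNF, and to 290 and 1039 in IKK2 KO, and its difference did not pass the test (adjusted p = 0.617).

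Of the 19 genes for adhesion and inflammatory effectors, 7 were lower and 0 higher, with a median of -0.54. TNF raised 17 of the 19 in WT and 9 in IKK2 KO. Vcam1, the adhesion molecule that binds leukocyte integrins (chr3:116109949-116129688, minus strand), stood at 2.74 and 2.63 CPM in untreated WT, 83.2 and 81.1 CPM in WT after TNF, 126 and 125 CPM in untreated IKK2 KO and 151 and 150.2 CPM in IKK2 KO after TNF. Untreated IKK2 KO already lay above treated WT, and TNF added little to it. The difference of -4.67 ± 0.09 (adjusted p = 7.3e-35) kept its sign in CPM, with gains of 79.5 CPM in WT and 25.1 CPM in IKK2 KO.

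Tlr2, a receptor for bacterial lipoproteins (chr3:83836272-83841767, minus strand), stood at 3.6 and 4.19 CPM in untreated WT, 42.3 and 40.2 CPM in WT after TNF, 7.58 and 7.99 CPM in untreated IKK2 KO and 15 and 13.8 CPM in IKK2 KO after TNF. Both treated IKK2 KO libraries lay below both treated WT libraries, and the difference was -2.50 ± 0.16 (adjusted p = 3.2e-15). Sele, the gene of E-selectin, differed by -2.55 ± 0.50 and Gch1, the first enzyme of tetrahydrobiopterin synthesis, by -1.75 ± 0.35. In both of these TNF raised WT and the change in IKK2 KO did not pass the test. Sele stood at 0.152 and 0.205 CPM in untreated WT (8 counts), 1.09 and 1.47 CPM in WT after TNF, 2.79 and 3.03 CPM in untreated IKK2 KO and 3.26 and 3.54 CPM in IKK2 KO after TNF, so untreated IKK2 KO already lay above treated WT. Gch1 went from 1.07 and 1.44 CPM to 3.51 and 4.29 CPM in WT and from 1.48 and 1.42 CPM to 1.16 and 1.48 CPM in IKK2 KO. Smaller differences were found for Has2, a hyaluronan synthase (-0.75 ± 0.08), Sdc4, a cell surface proteoglycan (-0.54 ± 0.05), and Plau, the urokinase gene (-0.54 ± 0.07). Icam1, another leukocyte adhesion molecule, summed to 0 counts in untreated WT, 55 in WT after TNF, 0 in untreated IKK2 KO and 2 in IKK2 KO after TNF. It was singled out after its values were seen and did not pass the test (adjusted p = 1).

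Among 17 cytokine and growth factor genes 5 were lower and 2 higher, with a median of -0.13. Lif, a cytokine of the interleukin 6 family (chr11:4257557-4272514, plus strand), stood at 8.77 and 8.33 CPM in untreated WT, 73.1 and 72.5 CPM in WT after TNF, 12.4 and 10.6 CPM in untreated IKK2 KO and 29.2 and 26 CPM in IKK2 KO after TNF. IKK2 KO began slightly above WT and ended far below it, a difference of -1.83 ± 0.13 (adjusted p = 1.0e-14). Csf1, the growth factor of macrophages (chr3:107741048-107760469, minus strand), went from 371 and 369.8 CPM to 823 and 807 CPM in WT and from 589.8 and 599 CPM to 805 and 786 CPM in IKK2 KO. Its treated libraries lay close together in the 2 lines, those of WT slightly higher, and the difference of -0.72 ± 0.04 (adjusted p = 1.9e-19) came with the higher untreated level of IKK2 KO.

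Pdgfb, a growth factor for mesenchymal cells, went from 0.406 and 0.287 CPM to 5 and 4.19 CPM in WT and from 7.3 and 7.74 CPM to 14.3 and 14.5 CPM in IKK2 KO. Its log2 difference was -2.80 ± 0.32 (adjusted p = 3.0e-08), but its gain in CPM was larger in IKK2 KO, at 6.88 against 4.25. Vegfa, a factor for blood vessel growth, and Inhba, an activin subunit, were lower by smaller amounts (-0.39 ± 0.05 and -0.29 ± 0.04). The 2 higher genes were Edn1, described with the higher genes, and Hbegf, a ligand of the EGF receptor (0.18 ± 0.04).

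Of 14 survival genes 5 were lower and 0 higher, with a median of -0.13. Traf1, an adaptor of TNF receptor signalling, stood at 0.659 and 0.657 CPM in untreated WT, 8.91 and 10.5 CPM in WT after TNF, 2.68 and 2.48 CPM in untreated IKK2 KO and 11.3 and 11 CPM in IKK2 KO after TNF. TNF raised it strongly in both lines, by 3.86 ± 0.19 and 2.11 ± 0.15, and the difference was -1.76 ± 0.29 (adjusted p = 7.9e-05). Birc3, the gene of the ubiquitin ligase cIAP2, went from 2.28 and 2.05 CPM to 12.7 and 13 CPM in WT and from 6.27 and 4.83 CPM to 12.4 and 11.2 CPM in IKK2 KO, a difference of -1.49 ± 0.20. Bcl10, a signalling adaptor (-0.42 ± 0.08), and Cflar, the gene of the caspase 8 inhibitor c-FLIP (-0.31 ± 0.05), were lower by less. Gadd45a, a stress-induced gene, was lower by point estimates of opposite sign in the lines (-0.71 ± 0.19), and its call was lost with DESeq2 and in 7 of the 8 fits that each left out 1 library (adjusted p of up to 0.24, without library a of treated WT).

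Of 24 interferon genes tested 3 were lower and 0 higher, with a median of -0.40. TNF raised 9 of the 24 in WT and 1 in IKK2 KO, which was Irf1. Irf1, a transcription factor that activates interferon-responsive genes (chr11:53770014-53778374, plus strand), went from 4.51 and 5.99 CPM to 16.2 and 15.6 CPM in WT and from 15.5 and 15.8 CPM to 21.7 and 21.1 CPM in IKK2 KO. Untreated IKK2 KO overlapped treated WT, and the difference was -1.13 ± 0.13 (adjusted p = 3.1e-08). Ddx58, the gene of the RNA sensor RIG-I, changed by 0.91 ± 0.10 in WT, while its value in IKK2 KO was 0.00 ± 0.14, a difference of -0.90 ± 0.17. Gbp2, an interferon-induced GTPase, went from 0.507 and 0.657 CPM to 1.53 and 2.04 CPM in WT and from 1.94 and 1.8 CPM to 2 and 1.79 CPM in IKK2 KO. It differed by -1.56 ± 0.41, and its call was lost with DESeq2 and in 6 of the 8 fits that each left out 1 library (adjusted p of up to 0.181, without library b of treated WT).

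Among the genes with the 15 largest lower differences, 4 belonged to none of the lists. Trim21, an antibody receptor and ubiquitin ligase, stood at 1.12 and 1.44 CPM in untreated WT, 3.61 and 3.72 CPM in WT after TNF, 0.684 and 0.805 CPM in untreated IKK2 KO and 0.315 and 0.264 CPM in IKK2 KO after TNF. Its difference was -2.84 ± 0.51 (adjusted p = 2.3e-04), and its change in IKK2 KO alone did not pass the test. Rnd1, a small GTPase, went from 5.93 and 5.58 CPM to 37.4 and 36.8 CPM in WT and from 25.6 and 23.9 CPM to 45.8 and 43.5 CPM in IKK2 KO, a difference of -1.84 ± 0.12. S1pr3, a receptor for sphingosine 1-phosphate, rose in WT and fell in IKK2 KO. It went from 5.88 and 6.57 CPM to 9.06 and 8.27 CPM in WT and from 1.82 and 1.24 CPM to 0.683 and 0.475 CPM in IKK2 KO, a difference of -1.87 ± 0.35 (adjusted p = 5.3e-04, and 0.0599 without library a of untreated IKK2 KO). Gsap went from 0.355 and 0.205 CPM (12 counts) to 1.14 and 0.733 CPM in WT and from 3.31 and 3.9 CPM to 2.84 and 3.59 CPM in IKK2 KO, so untreated IKK2 KO lay above treated WT. It had a difference of -1.93 ± 0.46 (adjusted p = 0.0105), and its call was lost without library b of untreated WT (adjusted p = 0.169) and without library a of treated WT (0.216).

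The higher genes showed a different form: many went down with TNF in WT and did not, or went up, in IKK2 KO. Ccn2, a matrix-associated signalling protein also known as CTGF (chr10:24595442-24598683, plus strand), stood at 1149 and 1176 CPM in untreated WT, 979 and 958 CPM in WT after TNF, 679 and 653 CPM in untreated IKK2 KO and 832 and 807 CPM in IKK2 KO after TNF. It fell in WT by 0.26 and rose in IKK2 KO by 0.30 on the log2 scale, a difference of 0.56 ± 0.04 (adjusted p = 1.9e-14). Ccn1, a related protein also known as CYR61 (chr3:145646976-145649981, minus strand), likewise went from 875 and 903 CPM to 727 and 724 CPM in WT and from 1069 and 1051 CPM to 1211 and 1169 CPM in IKK2 KO, a difference of 0.46 ± 0.03 (adjusted p = 2.4e-13). In both genes no treated library overlapped an untreated library of its own line, but Ccn1 was the higher in untreated IKK2 KO and Ccn2 in untreated WT.

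Erf, a repressor of the ETS family that ERK inactivates, also moved in opposite directions. It stood at 64.1 and 62.9 CPM in untreated WT, 53.4 and 54.5 CPM in WT after TNF, 36.1 and 37 CPM in untreated IKK2 KO and 45.4 and 48.7 CPM in IKK2 KO after TNF, a difference of 0.60 ± 0.07 (adjusted p = 2.9e-08). Mex3b, an RNA-binding protein, went from 7.1 and 6.57 CPM to 5.05 and 4.92 CPM in WT and from 13.8 and 14.5 CPM to 20.7 and 19.9 CPM in IKK2 KO, a difference of 0.97 ± 0.16 (adjusted p = 9.2e-05). For these 2 genes, as for Ccn1 and Ccn2, the fall in WT and the rise in IKK2 KO each passed the test.

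Other higher genes fell in both lines or in WT alone. Irs1, the docking protein of the insulin receptor, went from 106 and 104 CPM to 59 and 60.1 CPM in WT and from 218 and 219.5 CPM to 187 and 189 CPM in IKK2 KO. Id2, an inhibitor of basic helix-loop-helix factors, went from 79.6 and 79.7 CPM to 44.6 and 44.2 CPM in WT and from 112 and 110.4 CPM to 99.6 and 91.4 CPM in IKK2 KO. Both fell in each line and fell further in WT, with differences of 0.59 ± 0.05 (adjusted p = 4.4e-12) and 0.63 ± 0.06 (adjusted p = 1.1e-09). Edn1, the gene of the vasoconstrictor endothelin 1, stood at 7.51 and 7.63 CPM in untreated WT, 2.42 and 3.3 CPM in WT after TNF, 23.8 and 23.8 CPM in untreated IKK2 KO and 23.1 and 20.7 CPM in IKK2 KO after TNF. It fell in WT, its change in IKK2 KO did not pass the test, and the difference was 1.29 ± 0.19 (adjusted p = 8.9e-06). Lfng, a sugar transferase that modifies Notch receptors, and Ccdc9b fell in WT with no call in IKK2 KO, and differed by 0.70 ± 0.13 and 0.60 ± 0.11. Their untreated levels were 26.9 and 25.7 CPM in WT and 9.58 and 10.2 CPM in IKK2 KO for Lfng, and 35.3 and 34.5 CPM and 17.4 and 15.4 CPM for Ccdc9b.

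**Figure D3:**
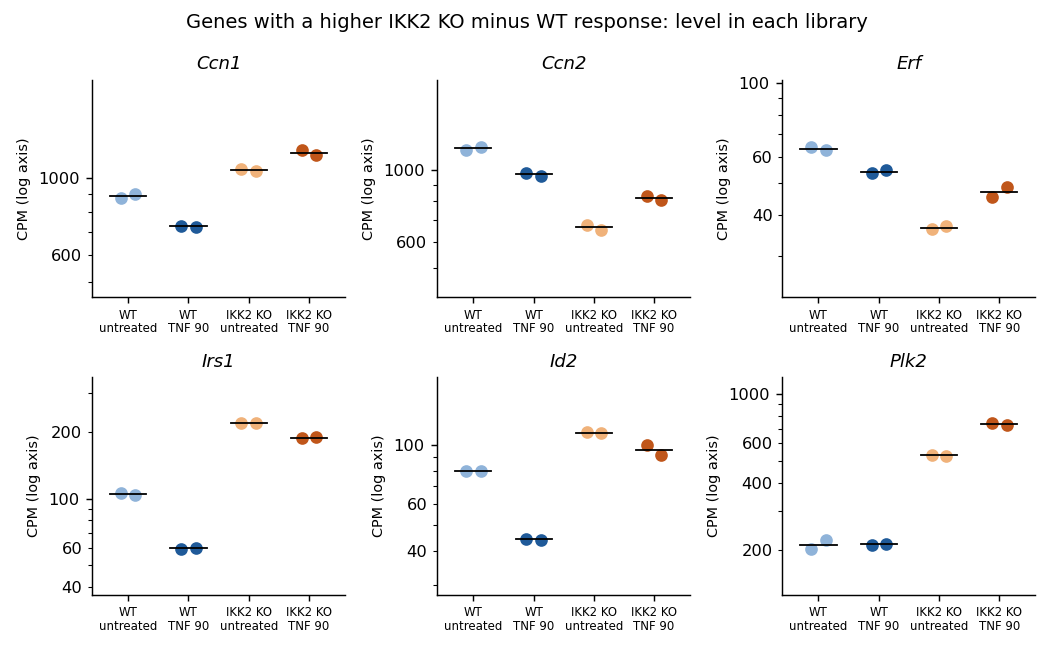
Level in each library (CPM, log axis) for 6 genes with a higher IKK2 KO minus WT difference of responses; points are libraries and bars are the means of 2. Ccn1, Ccn2 and Erf go down with TNF in WT and up in IKK2 KO, Irs1 and Id2 go down further in WT, and Plk2 goes up in IKK2 KO alone.

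Of 29 immediate-early genes tested 8 were higher and 0 lower, with a median of 0.15. Besides Ccn1 and Ccn2, these were Btg2, an antiproliferative gene (0.57 ± 0.15), Csrnp1, a nuclear protein induced by stress (0.36 ± 0.10), Fosl2, Jun and Myc, which encode transcription factors (0.26 ± 0.04, 0.21 ± 0.05 and 0.20 ± 0.05), and Klf6, a zinc finger factor (0.18 ± 0.04). The count ran from 5 to 8 over the other fits, and DESeq2 called 5. Btg2 turns with the scale: it went from 39.7 and 44.7 CPM to 56.1 and 51.9 CPM in WT and from 4.33 and 4.21 CPM to 8.3 and 7.92 CPM in IKK2 KO, so its gain in CPM was larger in WT. Its call was lost in 6 of the 8 fits that each left out 1 library (adjusted p of up to 0.148, without library b of untreated IKK2 KO), and that of Csrnp1 in 4 (up to 0.333, without library a of treated IKK2 KO).

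Of 20 MAPK feedback genes 3 were higher and 3 lower, with a median of -0.01. Dusp1, the phosphatase of p38 and JNK (chr17:26505590-26562128, minus strand), stood at 37.6 and 37.8 CPM in untreated WT, 25.8 and 27.5 CPM in WT after TNF, 16.4 and 16.6 CPM in untreated IKK2 KO and 18.6 and 18.8 CPM in IKK2 KO after TNF. It fell in WT, its change in IKK2 KO did not pass the test, and the difference was 0.69 ± 0.10 (adjusted p = 1.9e-06). Dusp16, another phosphatase of this family, was higher by 0.36 ± 0.08 (adjusted p = 0.0052, and 0.0628 without library a of untreated WT). The lower ones were Errfi1, an inhibitor of the EGF receptor (-0.36 ± 0.04), Dusp7 and Dusp6, phosphatases of ERK (-0.35 ± 0.07 and -0.34 ± 0.05). Spry1, an inhibitor of growth factor signalling, stood at 2.84 and 3.24 CPM in untreated WT and 51.2 and 46.9 CPM in untreated IKK2 KO. It was higher by 0.80 ± 0.23 with an adjusted p of 0.0496, and in CPM its fall was larger in IKK2 KO. That call was lost with DESeq2 and in 7 of the 8 fits that each left out 1 library (adjusted p of up to 0.377, without library a of treated WT).

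Of 22 p53 targets 4 were higher and 0 lower, with a median of -0.02. Plk2, a kinase of the stress response (chr13:110395046-110400844, plus strand), stood at 201 and 220.2 CPM in untreated WT, 211 and 212 CPM in WT after TNF, 535 and 528 CPM in untreated IKK2 KO and 742 and 724 CPM in IKK2 KO after TNF. The WT libraries overlapped and the IKK2 KO libraries did not, a difference of 0.47 ± 0.04 (adjusted p = 3.7e-11). In WT, Plk2 was higher at 45 min, at a mean of 507 CPM, and was back near its untreated level at 90 min. Cdkn1a, the cell cycle inhibitor p21, differed by 0.41 ± 0.06, from 188 and 191 CPM to 246 and 243 CPM in WT and from 31.9 and 33.3 CPM to 56.8 and 54.8 CPM in IKK2 KO, so that its gain in CPM was larger in WT. The others were Btg2 and Plk3, another stress kinase (0.50 ± 0.12), whose call was lost in 3 of the 8 fits that each left out 1 library (adjusted p of up to 0.135, without library b of treated WT). DESeq2 called 2 of the 4, with an adjusted p of 0.0618 for Btg2 and 0.0956 for Plk3.

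Further genes among the 15 largest higher differences rest on low levels or thin margins. Xist, the RNA that coats the inactive X chromosome, was at 1380.3 and 1352 CPM in untreated WT and 1386 and 1369.8 CPM in WT after TNF, against 0 and 0.31 CPM in untreated IKK2 KO and 0.578 and 0.95 CPM in IKK2 KO after TNF. Its difference of 2.30 ± 0.57 (adjusted p = 0.0157) rests on IKK2 KO libraries near 0 CPM, has the opposite sign in CPM (gains of 0.609 in IKK2 KO and 11.8 in WT), and was lost without library a of untreated IKK2 KO (1.27, adjusted p = 0.424) and without library b of treated IKK2 KO (1.91, adjusted p = 0.236). Without library b of untreated IKK2 KO, which leaves that group at 0 counts, the fitted value was 6.98 and is no bound. Hs3st3a1, a heparan sulfate enzyme (1.10 ± 0.30), Srrm4, a splicing factor (0.89 ± 0.24), and Speg, a muscle kinase (0.75 ± 0.21), lost their calls in 6, 7 and 7 of the 8 fits that each left out 1 library, with adjusted p values of up to 0.42, 0.246 and 0.347. Their untreated levels were 1.42 and 2.09 CPM in WT and 4.22 and 3.96 CPM in IKK2 KO for Hs3st3a1, 5.99 and 5.71 CPM and 2.28 and 2.91 CPM for Srrm4, and 3.04 and 2.5 CPM and 18.7 and 18.9 CPM for Speg. The highest p values were reached without library b of untreated WT, without library a of untreated IKK2 KO and without library a of untreated WT.

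**Figure D4:**
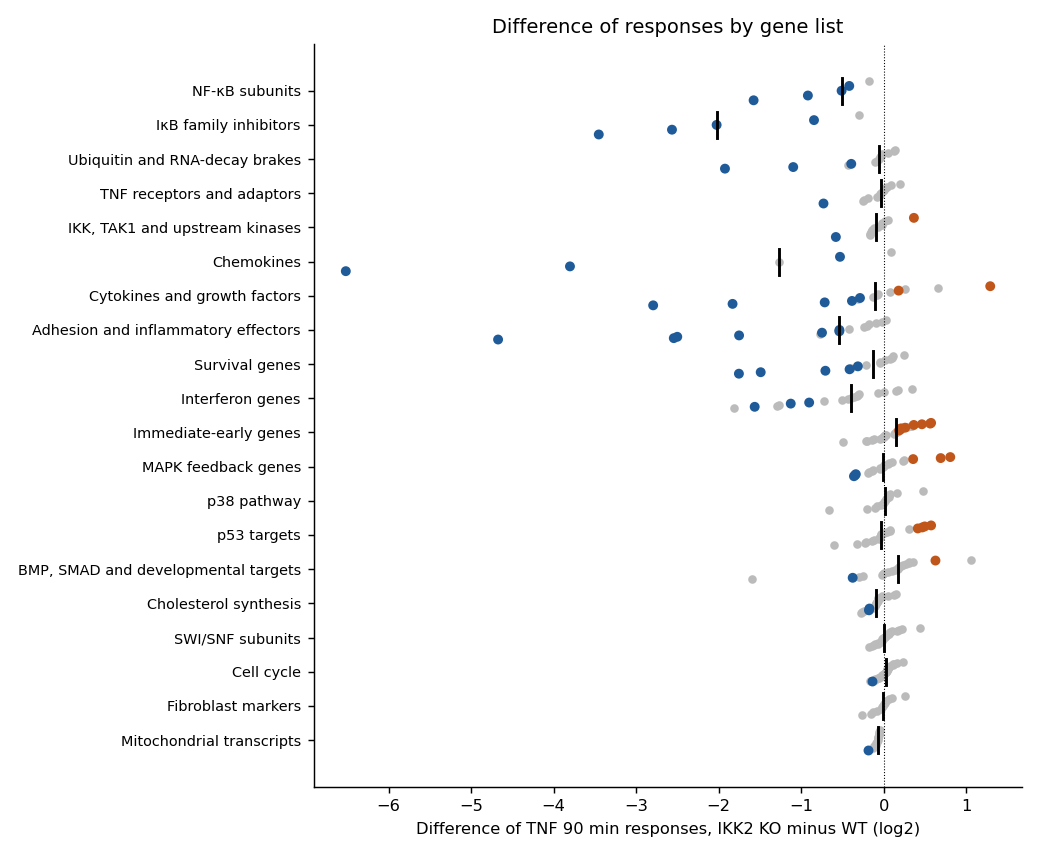
Difference of TNF 90 min responses (log2, IKK2 KO minus WT) of each member of 20 gene lists, for members with more than 3 counts in every group; blue and orange points are members called lower and higher, grey points are not called, and bars are medians over the members drawn. Lower calls fall in the NF-κB, inhibitor, ubiquitin and RNA-decay, chemokine, cytokine, adhesion, survival, interferon and MAPK feedback lists. Several other lists hold 1 or 2 lower calls each, and the immediate-early and p53 lists hold higher calls alone.

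Of 23 subunits of the SWI/SNF chromatin remodeller and 15 genes of the p38 pathway 0 passed the test by edgeR or DESeq2, with medians of 0.01 for both and with 2 SWI/SNF and 0 p38 genes at an unadjusted p under 0.05. The most abundant SWI/SNF gene, Smarcc1, had a difference of -0.02 ± 0.04, and the most abundant p38 gene, Map3k20, one of 0.04 ± 0.05. Of 23 cholesterol synthesis genes 2 were lower, Hmgcs1 (-0.18 ± 0.04) and Cyp51 (-0.17 ± 0.05), both enzymes of the pathway, with a median of -0.09, and DESeq2 called 0 of them. Their calls were lost in 5 and 6 of the 8 fits that each left out 1 library, with an adjusted p of up to 0.117 (without library a of untreated IKK2 KO) and 0.292 (without library a of treated WT).

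Of 23 BMP, SMAD and developmental targets, Id2 was higher and Smad3, a transducer of TGF beta signals, was lower (-0.38 ± 0.08), with a list median of 0.17. Of 27 cell cycle genes, Ccnd1, which encodes cyclin D1, was lower by little (-0.14 ± 0.03), and its call was lost in 4 of the 8 fits that each left out 1 library (adjusted p of up to 0.13, without library b of treated IKK2 KO). Of 15 fibroblast markers 0 passed the test by edgeR, with a median of -0.02 and 5 at an unadjusted p under 0.05, and DESeq2 called 1, Fn1, which encodes fibronectin (adjusted p = 0.0426). The markers of epithelial, endothelial, myeloid, muscle and adipocyte cells also had 0 calls by edgeR and by DESeq2, with 1 myeloid and 1 muscle marker at an unadjusted p under 0.05, and of 5 neural markers Sox2 was higher (0.26 ± 0.07), a call lost with DESeq2 and in 7 of the 8 fits that each left out 1 library (adjusted p of up to 0.304, without library a of untreated IKK2 KO).

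Non-coding, ribosomal and mitochondrial RNA classes were counted in the same way. The counts are to be read beside the shares over all genes tested, 2.35% called, 1.52% lower and 0.833% higher. Of 8 nuclear long non-coding RNAs 3 were higher and 0 lower, with a median of 0.14. These were Xist, Kcnq1ot1, an imprinted antisense RNA (0.34 ± 0.06), and Neat1, the scaffold of paraspeckles (0.22 ± 0.05, adjusted p = 0.0566 without library b of untreated IKK2 KO). Of 989 unverified transcripts that GENCODE marks as still to be checked by experiment (TEC) 13 were higher and 1 lower, with a median of 0.22, and their summed level was 2723 and 2520 CPM in untreated WT, 2464 and 2412 CPM in WT after TNF, 1609 and 1572 CPM in untreated IKK2 KO and 1748 and 1732 CPM in IKK2 KO after TNF. Of 77 ribosomal protein genes 10 were lower and 0 higher, with a median of -0.08. Of 13 mitochondrial transcripts 1 was lower, mt-Nd3 (-0.19 ± 0.05), whose call was lost with DESeq2 and in 5 of the 8 fits that each left out 1 library (adjusted p of up to 0.26, without library a of treated IKK2 KO). The TEC and ribosomal groups were chosen after their values were seen, and the part that RNA class or quality has in the higher and lower calls was not tested.

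The untreated level differed between the lines for most genes described here, and the scale of the comparison bears on them. Of the 384 genes 345 differed between the untreated lines at an adjusted p under 0.05, against 74.3% of all genes tested, and 128 did so by at least 2-fold, 70 with IKK2 KO higher and 58 with WT higher. The share of all genes tested that did so by at least 2-fold is not given here, so the 128 are not set against it. The mean gain in CPM had the same sign as the log2 difference for 367 genes and the opposite sign for 17, of which 16 had untreated levels at least 2-fold apart.

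The same difference of responses at 45 min uses the same untreated libraries, so the values at 45 and 90 min are given side by side and their likeness is not a result. Of the 384 genes 180 were also called at 45 min, 148 in the same direction and 32 in the opposite one, and 204 were not called at 45 min. These counts are not set against the share of all genes tested that was called at 45 min, which is not given here. The change from 45 to 90 min does not use the untreated libraries. It differed between the lines in 1105 genes (6.77%) and in 196 of the 384.

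For several pathway genes the difference was larger at 45 min. Tnfaip3 had -3.90 ± 0.08 at 45 min and -1.92 ± 0.09 at 90 min, and Irf1 had -3.05 ± 0.11 and -1.13 ± 0.13. Lif had -3.28 ± 0.15 at 45 min and -1.83 ± 0.13 at 90 min. In these 3 genes the change from 45 to 90 min differed between the lines (adjusted p = 7.0e-28, 1.3e-20 and 8.4e-13). Tlr2 and Cxcl10 stood at -2.40 ± 0.17 and -4.05 ± 0.39 at 45 min, and a difference between the lines from 45 to 90 min did not pass the test for them (adjusted p = 0.754 and 0.459).

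Among the 32 genes that turned, 20 were above 0 at 90 min. Edn1 stood at 14.7 and 14.7 CPM in WT and 34.5 and 31.8 CPM in IKK2 KO at 45 min, and its difference was -0.48 ± 0.14 then and 1.29 ± 0.19 at 90 min. Plk2 had -0.67 ± 0.04 at 45 min and 0.47 ± 0.04 at 90 min, Irs1 had -0.52 ± 0.05 and 0.59 ± 0.05, and Id2 had -0.35 ± 0.07 and 0.63 ± 0.06. Each of these 4 was below 0 at the earlier time and above 0 at the later one. Dusp1 and Ccn2 were above 0 at both times, Dusp1 more so at 45 min (1.69 ± 0.08) and Ccn2 more so at 90 min (0.56 ± 0.04 against 0.33 ± 0.04).

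**Figure D5:**
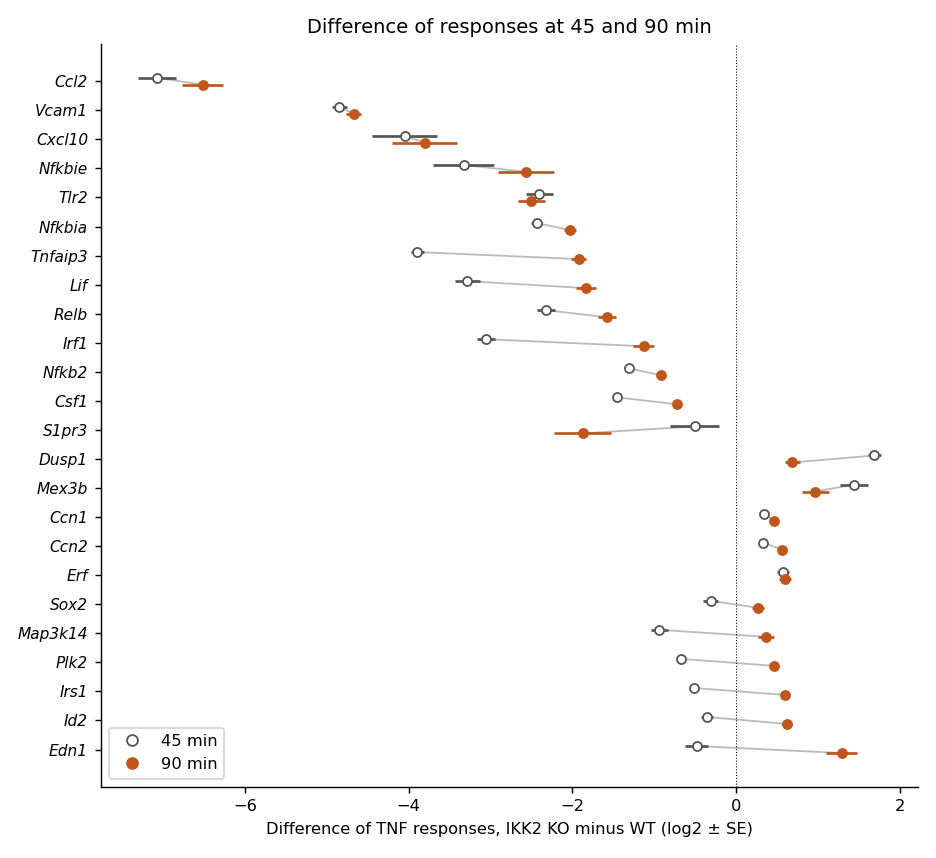
Difference of TNF responses (log2 ± SE, IKK2 KO minus WT) at 45 min (open) and 90 min (filled) for 24 genes; both times share the untreated libraries. Tnfaip3, Lif and Irf1 lie closer to 0 at 90 min, whereas Plk2, Irs1, Id2 and Edn1 go from below to above 0.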

How the data were processed

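RNA was isolated with Trizol and columns and read as paired ends of 76 bases from directional total RNA libraries, per the labels' protocols. The authors deposited 1 table of expected counts for 55536 genes in 18 libraries. Of its nonzero values 31.8% were fractional, and they were rounded to whole counts. The submitters' processing notes name HISAT2 and the build GRCm38 for mapping, featureCounts (Subread 1.6.2) for counting, FastQC 0.11.8, Trimmomatic and edgeR 3.26.4. How strand and multiply matching reads were treated, and which annotation was used, is not given in the sources used here, so antisense, overlapping and near-identical genes may share reads. Symbols and positions came from GENCODE M21.

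Genes were filtered with filterByExpr, leaving 16322 and dropping 0.0601% of the counts, and scaled by TMM. The robust quasi-likelihood test of edgeR 4.0.16 (R 4.3.3) was fitted to all 18 libraries with 1 coefficient per group (9 residual degrees of freedom), with Benjamini-Hochberg adjustment and a threshold of 0.05. Each SE is the size of the log2 value divided by the square root of its F statistic. It is an approximation and may be too small where a group holds few counts. Alternatives used limma 3.58.1, DESeq2 1.42.0, other scalings, filters and sample sets, and left out each of the 8 libraries. On simulated data of 16222 genes the test of this difference recovered 84% of 50 planted changes of 1.5-fold, 92% of 2-fold changes and 100% of those of 4-fold or 8-fold, with 6 false calls among 194. Changes were planted only in genes with at least 2 CPM in untreated WT and in untreated and treated IKK2 KO, so recovery at lower levels was not measured. Each simulated gene had the same spread in all groups, whereas the IKK2 KO replicates of the data differed more than those of WT.

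The column names give each library's group and a code that matches no label, so a and b are names given here. Replicates of a group differed by 1.17 to 4.02 in chi-square per degree of freedom over the 8 libraries, with the higher values in untreated (4.02) and treated (3.73) IKK2 KO. Named genes were Rela, Ikbkb, the 15 largest called differences in each direction with at least 2 CPM, more than 3 counts in every group, no overlap between lines and no predicted name, and up to 4 called members of each of 27 lists, or the 2 most abundant where none was called. Called list members beyond 4 were also named, a choice made after their values were seen. The members and lists were chosen with earlier results of these data known. The comparison of 45 to 90 min changes was added after seeing the data. Some results are not reported here.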

Additional observations from a re-analysis of the deposited data

Results flagged for a closer look

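For 5 of the genes chosen by the naming rule, TNF moved the 2 lines in opposite directions, with each line's change past the threshold of edgeR's quasi-likelihood test and the difference between the lines tested in the same model. S1pr3 rose in WT and fell in IKK2 KO, a difference of -1.87 on the log2 scale. The other 4 fell in WT and rose in IKK2 KO, with differences of 0.97 for Mex3b, 0.60 for Erf, 0.56 for Ccn2 and 0.46 for Ccn1. Amotl2, named outside that rule, rose in WT and fell in IKK2 KO, a difference of -0.28.

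Of the 32 genes that turned between the times, 6 were chosen by the naming rule. For these the difference between the lines was called with opposite signs at 45 and 90 min, and the change between these times differed between the lines. That change, IKK2 KO minus WT on the log2 scale, was 1.77 for Edn1, 1.30 for Map3k14, 1.13 for Plk2, 1.11 for Irs1, 0.98 for Id2 and 0.58 for Sox2. The 90 min calls of Map3k14 and Sox2 were not stable, being lost with DESeq2 and in most fits that left out 1 library. Of the genes named outside the rule 6 more turned, and the change was -2.57 for Has2, -1.47 for Vegfa, -0.56 for Dusp6, 0.90 for Ajuba, 0.82 for Crim1 and 0.53 for Thbs1.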

How the results depend on the processing

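No paired analysis was possible because the columns carry no replicate number that the labels share. Against 384 genes called, other scalings, filters, sample sets and limma-voom gave 354 to 425, DESeq2 gave 208 (142 lower, 66 higher), and a minimum of 2-fold left 52. Leaving out 1 library gave 260 to 336 genes, of which 171 to 203 were lower and 83 to 133 higher. The lower calls made up 60.1 to 68.3% over these fits, against 64.6%. Of 65 named genes that were called, 44 kept the call in each of these fits and 21 lost it in at least 1, with 0 changes of direction. The cause was not tested, other than that fewer libraries were fitted in those leaving out 1. On the scale of CPM gains, chosen after seeing the data, 7 genes chosen by the naming rule turned, as did Ccl7 (5.45 CPM): the gain of IKK2 KO minus that of WT was 3.58 CPM for Ccl2, 8.43 for Cxcl10, 2.64 for Pdgfb, -11.2 for Xist, -10.2 for Spry1, -7.98 for Btg2 and -31.7 for Cdkn1a. Low counts limit Bcl3, Trim21 and Xist in IKK2 KO.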

Other observations

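Genes of MHC class I and of peptide loading, picked out after their values were seen, held 5 lower and 0 higher of 13 tested, with a median difference of -0.43 against 0.0019 over all genes. Of all genes tested 1.52% were lower and 0.833% higher. H2-K1, a class I heavy chain, differed by -1.21 ± 0.25, and the peptide transporter gene Tap2 by -1.33 ± 0.30. Tapbp, whose product tapasin loads peptides, differed by -0.61 ± 0.08, the peptide-trimming enzyme gene Erap1 by -0.43 ± 0.11 and Rfx5, a regulator of MHC genes, by -0.65 ± 0.14. In WT, TNF raised each of the 5, and in IKK2 KO it raised Rfx5 alone among them. For Tap2, Tapbp and Erap1 the mean of untreated IKK2 KO already lay above that of treated WT. These means were 3.78 against 2.76 CPM, 62.9 against 34.9 CPM and 19 against 17.7 CPM, with overlapping libraries for Erap1. Untreated H2-K1 and Rfx5 were lower in IKK2 KO than in untreated WT, at 2.7 against 4.03 CPM and 7.31 against 11.6 CPM.

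Known targets of the coactivator YAP, also picked out after their values were seen, held 6 higher and 1 lower of 11 tested, with a median of 0.22. The shares among all genes tested were 0.833% higher and 1.52% lower. Besides Ccn1 and Ccn2 the higher ones were Ajuba, a LIM protein (0.44 ± 0.06), Thbs1, a matrix glycoprotein (0.39 ± 0.03), Ankrd1 (0.24 ± 0.04) and Crim1 (0.22 ± 0.05). Amotl2, an inhibitor of YAP, was lower (-0.28 ± 0.04). Mean untreated levels in WT and IKK2 KO were 73.45 and 127.1 CPM for Ajuba, 2131 and 2891 CPM for Thbs1, and 155.8 and 485.2 CPM for Ankrd1. They were 317.5 and 110.3 CPM for Crim1 and 250.9 and 396.6 CPM for Amotl2.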
